A study of Mus musculus with 4 samples.

Results

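The oligoadenylate synthetase family was read as 8 genes, Oas1a, Oas1b, Oas1c, Oas1g, Oas2, Oas3, Oasl1 and Oasl2, picked by name from an expression table of 34721 entries with earlier results of these data known. Their levels are therefore given as a description, with no test. Each gene had 1 entry, and 7 of the 8 reached 1 FPKM (a fragment count corrected for how long the transcript is and how deep the library was) in at least 1 line, as did 14165 entries of the whole table. Oas2 did not, and Oas1a, Oas1b, Oas1c and Oas1g did so in AOC11-LN alone, so that counts of members higher in that line follow in part from this minimum and are given as a description. The study raised squamous cell carcinomas in the mouth of male C57BL/6 mice by applying the carcinogen DMBA to the buccal mucosa, and made cell lines from the tumours to learn how they respond to immune checkpoint inhibitors. AOC3 is the primary tumour line of mouse 3 and AOC11 that of mouse 11. Their partners AOC3-LN and AOC11-LN were made from metastases in lymph nodes of the same mice. Where 4 values are listed without names, they follow the order AOC3, AOC3-LN, AOC11, AOC11-LN. All lines were passed once as a subcutaneous tumour in the flank of a C57BL/6 mouse, freed of fibroblasts with a separation kit and grown in DMEM/F12 with fetal bovine serum, and the labels name no treatment of the sequenced cells. Each line was sequenced as 1 library and each pair of lines stands for 1 mouse, so no value has a replicate and a difference between lines cannot be told apart from a difference between cultures.

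OAS proteins are cytoplasmic sensors of double-stranded RNA. On binding it, the active enzymes join ATP into short chains of adenosine with an unusual linkage, called 2-5A, which acts as a second messenger of the antiviral response and leads to the decay of RNA and a halt in protein synthesis. The genes are classical targets of type I interferon, whose receptor sends a complex of transcription factors, Stat2 and Irf9 among them, to interferon-stimulated response elements in their promoters. In squamous epithelium, as in most tissues, they are low at rest and climb after viral infection or exposure to interferon.

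The genes lie in 2 groups on mouse chromosome 5, 5.79 Mb apart (mm10, positions from GENCODE M21). Oas2, Oas3 and the Oas1 genes fill 177 kb from 120730333 to 120907521, and Oasl2 and Oasl1 are neighbours within 41.0 kb from 114896936 to 114937915. Oas1b and Oas1c stand head to head, on opposite strands, with 120 bases between their first exons. Promoter windows from RefSeq (GRCm38.p6, 250 bases before to 50 after the annotated start) were found for 6 of the 8 genes. The core of the interferon-stimulated response element, GAAA repeated after any 2 bases, was searched on both strands, overlapping matches included. The 120 bases before the start are shown, each on the strand of its gene, because several Oas1 genes carry the same stretch there. Capitals mark matches to this core, and for Oas1b the interval up to Oas1c was read from the Oas1c window in reverse complement.
Oas1a (chr5:120907526-120907645, minus strand): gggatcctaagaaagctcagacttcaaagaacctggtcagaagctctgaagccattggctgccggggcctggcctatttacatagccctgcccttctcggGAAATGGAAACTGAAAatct
Oas1g (chr5:120887614-120887733, minus strand): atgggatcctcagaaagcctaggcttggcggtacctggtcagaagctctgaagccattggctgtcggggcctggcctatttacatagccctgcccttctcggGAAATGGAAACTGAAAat
Oas1b (chr5:120812515-120812634, plus strand): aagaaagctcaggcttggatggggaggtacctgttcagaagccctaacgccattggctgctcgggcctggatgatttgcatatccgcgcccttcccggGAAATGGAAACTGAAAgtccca
Oas3 (chr5:120777660-120777779, minus strand): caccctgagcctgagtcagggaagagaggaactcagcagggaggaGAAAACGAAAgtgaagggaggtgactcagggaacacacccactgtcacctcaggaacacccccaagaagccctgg
Oasl1 (chr5:114923120-114923239, plus strand): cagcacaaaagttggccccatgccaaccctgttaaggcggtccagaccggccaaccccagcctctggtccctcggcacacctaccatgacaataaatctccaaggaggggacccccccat
Oasl2 (chr5:114896814-114896933, plus strand): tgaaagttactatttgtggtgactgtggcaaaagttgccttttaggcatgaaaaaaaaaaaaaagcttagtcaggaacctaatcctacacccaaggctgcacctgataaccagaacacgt

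The same 16 letters, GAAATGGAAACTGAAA, which hold 2 overlapping matches, ended 5 bases before the start of Oas1a, 3 bases before that of Oas1g and 7 bases before that of Oas1b. Seen from Oas1c the identical stretch lies on the other strand, 99 to 114 bases before the start, since both genes share the interval. Oas3 held 1 match, 66 to 75 bases before its start, with other letters in between. The Oasl1 and Oasl2 windows held none, which says only that these letters are missing from these windows. For comparison, 3.44% of 32851 RefSeq promoter windows of the same length held the same core, and 1.22% held it in the 120 bases before the start. The core of the gamma-activated site, TTCNNNGAA, occurred in 8.30% of all windows and, in the family, in that of Oas1a, 90 to 98 bases before the start.

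**Figure D1:**
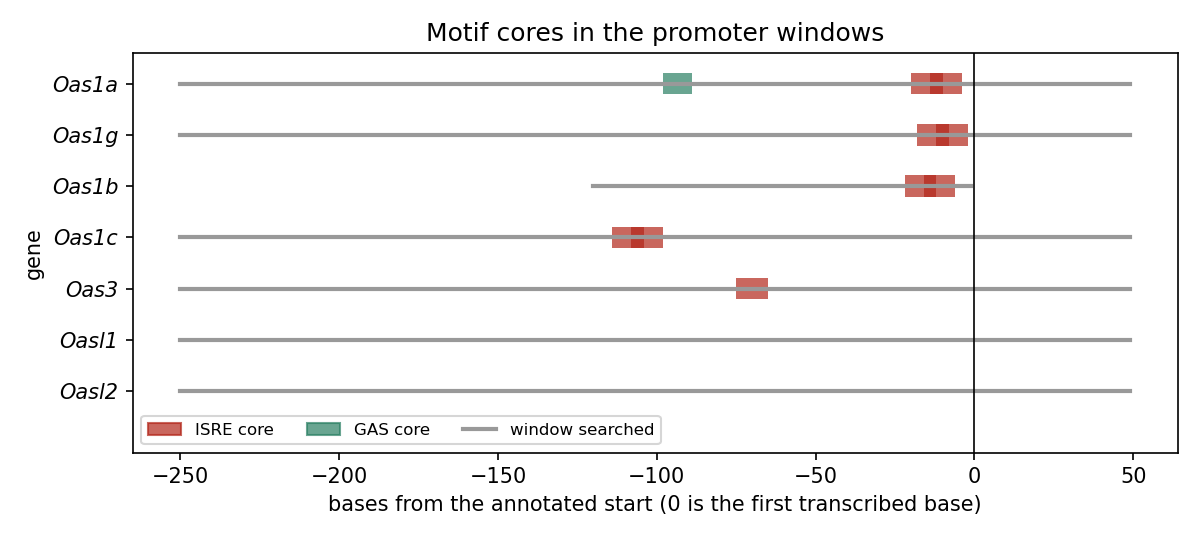
Position of each match in the promoter windows of 7 family genes, in bases from the annotated start, with the core of the interferon-stimulated response element (ISRE core) in red and TTCNNNGAA (GAS core) in green. The red matches of Oas1a, Oas1g and Oas1b sit within 22 bases of the start, the 1 green match is that of Oas1a 90 to 98 bases before it, and the Oasl1 and Oasl2 windows are empty.

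Oas1a and Oas1g encode enzymes with synthetase activity. Oas1a had 0.198 FPKM in AOC3 and was listed at 0 in AOC3-LN, while AOC11 had 0.920 and AOC11-LN 3.29. Oas1g followed it with 0.127 FPKM in AOC3 against 0 in AOC3-LN, and 0.430 in AOC11 against 2.56 in AOC11-LN. Both were highest in AOC11-LN and at 0 in AOC3-LN, where 3 fragments would correspond to about 0.0614 FPKM for Oas1a and 0.0583 for Oas1g. These paralogs cannot be fully separated, because 40.9% of the 100-base windows of the Oas1a transcript also occur in Oas1g, and their transcripts are 97.5% identical over 1860 aligned bases. Their sum depends on how such reads were divided only through the transcript lengths, 1885 and 1977 bases, and it was 0.325 FPKM in AOC3 against 0 in AOC3-LN, and 1.35 in AOC11 against 5.85 in AOC11-LN. In bulk RNA fewer expressing cells and less RNA per cell cannot be told apart. Depth was estimated from the steps between low FPKM values and is approximate, and by that estimate Oas1a rested on 11, 0, 53 and 184 fragments in the same order of lines, and Oas1g on 8, 0, 26 and 151.

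Oas1b is the gene behind inherited resistance to flaviviruses, and the C57BL/6 allele has a premature stop codon, for which the annotation calls it a polymorphic pseudogene. Its level was 0.266 FPKM in AOC3 against 0 in AOC3-LN, and 0.197 in AOC11 against 1.02 in AOC11-LN. Oas1c, its head-to-head partner, had 0.434, 0.0165, 0.799 and 4.33 FPKM. AOC11-LN again held the most of both genes, and AOC3-LN held about 1 fragment of Oas1c and none of Oas1b. The levels of the pair were not in a fixed ratio, since Oas1c exceeded Oas1b 1.63-fold in AOC3, 4.06-fold in AOC11 and 4.25-fold in AOC11-LN in FPKM. Between the primary lines Oas1b differed by less than its counting error (AOC11 over AOC3 0.740-fold, exact 95% interval 0.307 to 1.72), whereas Oas1c was 1.84-fold higher in AOC11 (1.17 to 2.96). Intervals of this kind cover counting error only, not the spread between cultures.

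Oas3, the longest member of the family, is the main producer of 2-5A in human cells. It had 0.466 FPKM in AOC3 against 0.0971 in AOC3-LN, and 1.01 in AOC11 against 5.42 in AOC11-LN, on an estimated 71, 13, 155 and 801 fragments. All 4 lines thus expressed it, and each step of the order AOC11-LN, AOC11, AOC3, AOC3-LN exceeded counting error, with a ratio of 5.36 (4.51 to 6.40) for the first step, 2.17 (1.64 to 2.93) for the second and 4.80 (2.52 to 9.05) for the third. The same order held for Oas1a, Oas1c and Oas1g, in all 4 of the 8 genes, beside 10.3% of the genes that reached 1 FPKM. Oas2, which lies next to Oas3 with 3244 bases between them, was listed at 0 in both AOC3 lines and had 0.0270 FPKM in AOC11 and 0.0697 in AOC11-LN. Those values rest on about 3 and 9 fragments, and their ratio of 2.58 had an interval of 0.775 to 17.8, so no difference in Oas2 between the AOC11 lines was detectable at this depth.

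Oasl2 keeps synthetase activity in the mouse and carries ubiquitin-like domains, as does Oasl1. It was the most abundant member of the family on average, with 4.95 FPKM in AOC3 against 0.138 in AOC3-LN, and 4.24 in AOC11 against 21.9 in AOC11-LN. The AOC11-LN level put Oasl2 at the 78.5th percentile of protein-coding genes in that line, and the AOC3-LN level, on about 12 fragments, at the 37.8th percentile in its line. The primary lines were close, at 1.17-fold higher in AOC3 (1.02 to 1.33), while the lymph node lines were 158-fold apart (87.6 to 297).

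Oasl1 lacks synthetase activity and is known to hold back translation of Irf7, the factor that amplifies interferon production. It had 5.64 FPKM in AOC3 against 0.807 in AOC3-LN, and 0.355 in AOC11 against 1.26 in AOC11-LN. It was highest in AOC3, as were 19.1% of the genes that reached 1 FPKM, whereas the other 7 genes, Oas2 below the minimum among them, were highest in AOC11-LN, as were 32.1%. It was 15.9-fold higher in AOC3 than in AOC11 (10.5 to 25.1), and AOC11, not AOC3-LN, was its lowest line. The 2 lymph node lines were 1.56-fold apart (1.07 to 2.29), against 158-fold for Oasl2, whose gene begins the same group 11005 bases away.

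**Figure D2:**
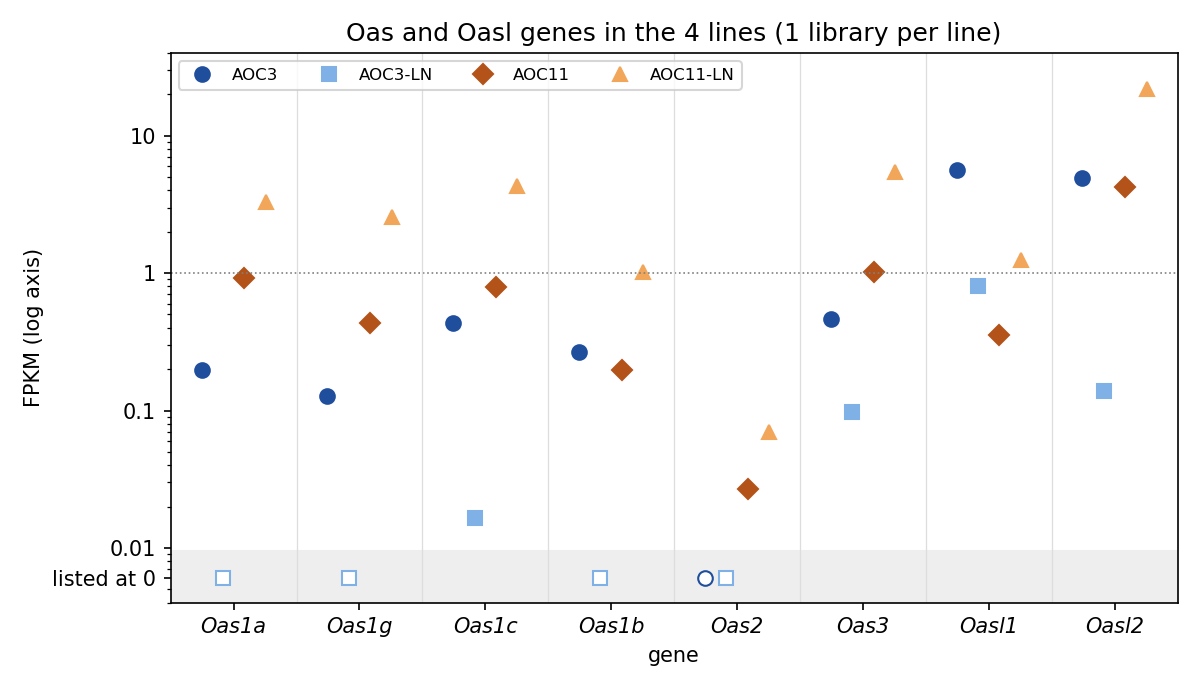
FPKM of each of the 8 genes in the 4 lines on a log axis, 1 library per line, with open symbols in the grey band for values listed at 0 and a dotted line at 1 FPKM. AOC11-LN is the highest line for 7 of the 8 genes, all but Oasl1, which is highest in AOC3 at 5.64 FPKM.

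Summed over the 8 genes, AOC3 had 12.1 FPKM, AOC3-LN 1.06, AOC11 7.98 and AOC11-LN 39.9. The make-up of that sum differed between the mice. Oasl1 gave 46.7% of it in AOC3 and 76.2% in AOC3-LN, but 4.45% in AOC11 and 3.15% in AOC11-LN. Oasl2 gave 41.0%, 13.1%, 53.1% and 55.0% in the same order, and the 4 Oas1 genes gave 8.49%, 1.56%, 29.4% and 28.1%. In FPKM, Oasl2 stood at 0.878 times Oasl1 in AOC3 and 0.172 times in AOC3-LN, against 11.9 times in AOC11 and 17.5 times in AOC11-LN. The sum was 11.4-fold higher in AOC3 than in AOC3-LN and 5.0-fold higher in AOC11-LN than in AOC11.

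**Figure D3:**
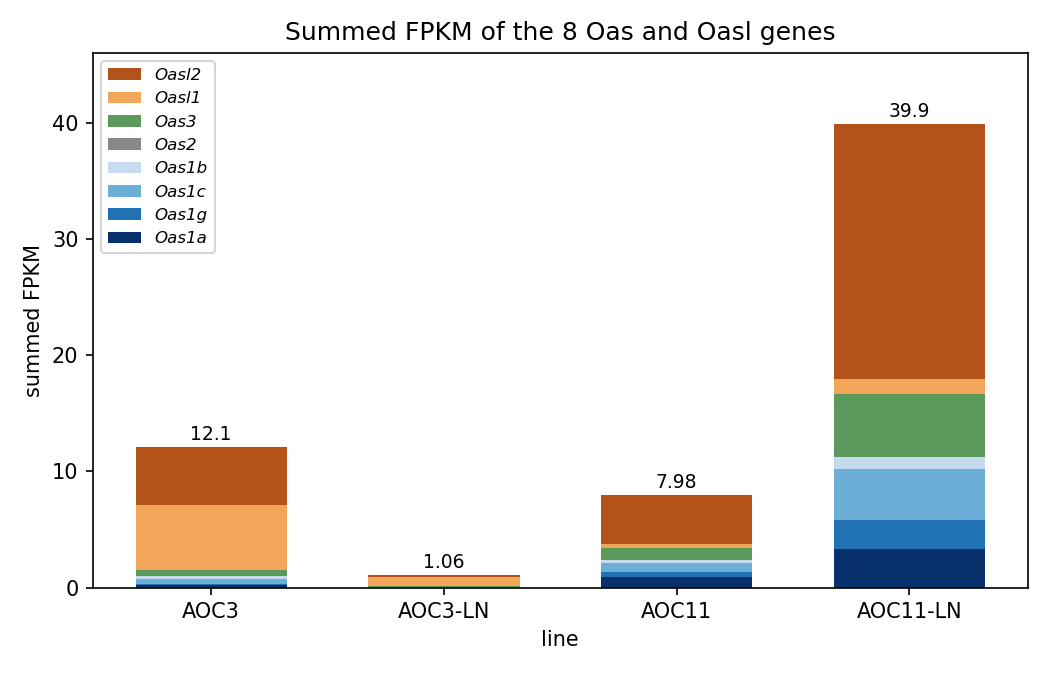
Summed FPKM of the 8 genes in each line, stacked by gene, with the total above each bar (1 library per line). The total runs from 1.06 in AOC3-LN to 39.9 in AOC11-LN, and the light orange Oasl1 segment makes up 46.7% of the bar in AOC3 and 3.15% in AOC11-LN.

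Within mouse 3 the question was how the lymph node line differs from the primary line it is paired with. Of the 8 genes, 7 were more than 2-fold lower in AOC3-LN in deposited FPKM, beside 8.86% of the genes that reached 1 FPKM, and Oas2 was at 0 in both lines. AOC3 exceeded AOC3-LN 35.8-fold for Oasl2 (19.6 to 67.4), 6.99-fold for Oasl1 (5.16 to 9.76) and 4.80-fold for Oas3. For Oas1c the ratio of 26.2 rests on 1 fragment in AOC3-LN and had an interval of 4.36 to 1066. On the quantile-normalized log2(FPKM + 1) scale, which understates the change of low genes, a difference above 1 or below -1 was counted as called. By that threshold 2 members were called lower in AOC3-LN, Oasl2 at -2.34 and Oasl1 at -1.78, beside 3.42% of all genes, and 0 were called higher, beside 2.11%. With a pseudocount of 0.1 in place of 1, 7 members were called lower, beside 6.42%.

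Within mouse 11 the same question had the opposite answer. All 8 genes were more than 2-fold higher in AOC11-LN than in AOC11 in deposited FPKM, beside 12.4% of the genes that reached 1 FPKM. The ratios lay close together, from 2.58 for Oas2 to 5.95 for Oas1g (3.92 to 9.43), with a median of 5.18 over the 8 genes, and the interval for Oas2 included 1. On the log2 scale 4 members were called higher, Oasl2 at 2.09, Oas3 at 1.46, Oas1c at 1.32 and Oas1g at 1.08, beside 4.97% of all genes, and 0 were called lower, beside 3.14%. Oas1a at 0.90, Oas1b at 0.54, Oasl1 at 0.47 and Oas2 at 0.03 stayed under the threshold. With a pseudocount of 0.1, 7 members were called higher, all but Oas2, beside 8.46% of all genes.

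Set side by side, 7 of the 8 genes were more than 2-fold lower in the lymph node line of mouse 3 and more than 2-fold higher in that of mouse 11, a pair of directions seen in 3.28% of the genes that reached 1 FPKM. On the log2 scale 1 member, Oasl2, was called in both, as were 0.678% of all genes, and 0 were called the other way round, beside 0.304%. With a pseudocount of 0.1 it was 7 members, beside 1.82%. Oasl1 and the Oas1 genes part in the plot of shifts, which uses the pseudocount of 1 and so understates the change of low genes. Oasl1 had -1.78 in mouse 3 and 0.47 in mouse 11, and Oas1c, the Oas1 gene with the largest shift in each mouse, had -0.46 and 1.32. In FPKM ratios Oasl1 moved 6.99-fold in mouse 3 and 3.54-fold in mouse 11 (2.21 to 5.80). Oas1c moved 26.2-fold in mouse 3, on 1 fragment in AOC3-LN, and 5.42-fold in mouse 11 (4.06 to 7.30). With a pseudocount of 0.1 the shifts were -2.49 and 1.02 for Oasl1 and -2.04 and 1.91 for Oas1c. The smaller shift of Oas1c in mouse 3 thus rests largely on the pseudocount.

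**Figure D4:**
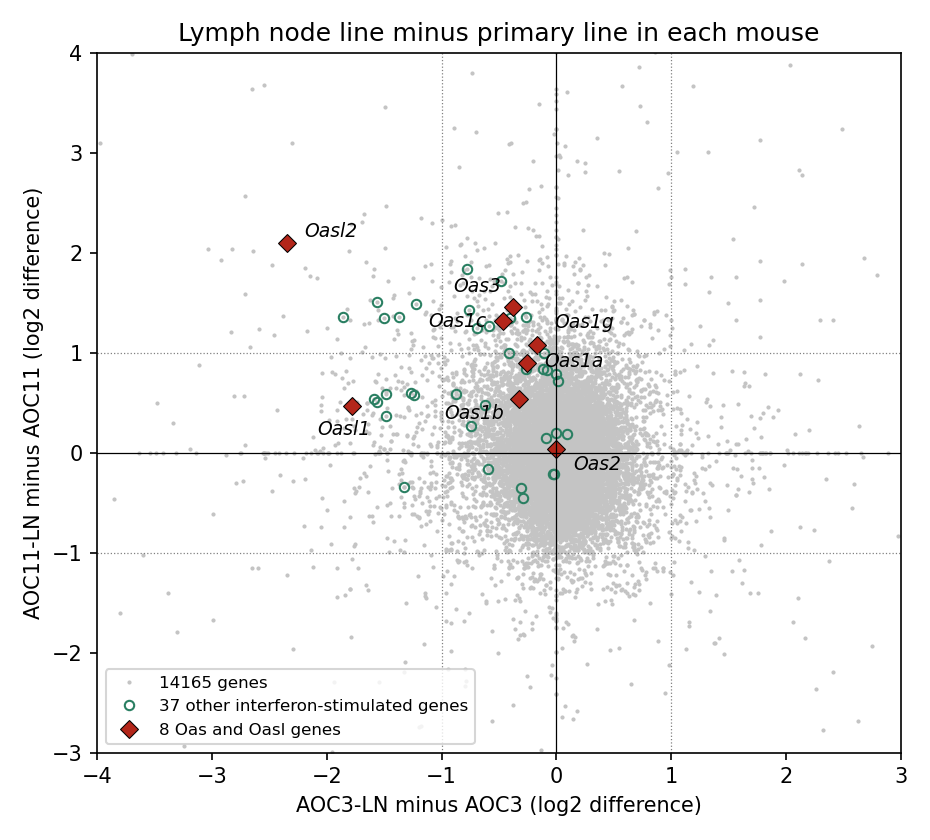
Log2 difference of the lymph node line minus the primary line in mouse 3 (x axis) and mouse 11 (y axis) for 14165 genes (grey), 37 other interferon-stimulated genes (green circles) and the 8 family genes (red diamonds), with dotted lines at the threshold of 1 and with 152 genes beyond the axes not drawn. Oasl2 lies at -2.34 and 2.09, all 8 family genes lie above 0 in mouse 11, and 7 of the 8 lie below 0 in mouse 3, with Oas2 at 0.00.

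Between the primary lines, AOC11 and AOC3, the family showed no common direction. Oas1a was 4.65-fold higher in AOC11 (2.51 to 10.3), Oas1g 3.38-fold (1.44 to 8.37), Oas3 2.17-fold and Oas1c 1.84-fold, whereas Oasl1 was 15.9-fold lower and Oas1b and Oasl2 differed by less than 1.5-fold. With Oas2, which was at 0 in AOC3, 4 members were more than 2-fold higher in AOC11 and 1 more than 2-fold lower, beside 8.95% and 11.8% of the genes that reached 1 FPKM. On the log2 scale 0 members were called higher in AOC11, beside 5.69% of all genes (4 with a pseudocount of 0.1, beside 9.02%), and 1 member, Oasl1 at -2.19, was called lower, beside 6.25%. Between the lymph node lines all 8 genes were higher in AOC11-LN, beside 56.2% of the genes that reached 1 FPKM, and 7 of them by more than 2-fold, beside 16.0%. Oasl2 led with a log2 difference of 4.28, followed by Oas3 at 2.44, Oas1c at 2.27, Oas1a at 1.97 and Oas1g at 1.68, which made 5 members called higher beside 8.69% of all genes and 0 called lower beside 7.58%. Oas1b was at 0.85 and Oasl1 at 0.06. These comparisons share lines with those within each mouse, so a line that stands apart, such as AOC3-LN, enters 2 of them.

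A difference between the mice larger than that between the lines of a mouse was looked for as a gap, the lower line of one mouse minus the higher line of the other. By the threshold of 1 on the log2 scale 0 members were called in either direction, beside 2.08% of genes with both AOC11 lines higher and 1.81% with both AOC3 lines higher. Oas1a came nearest with a gap of 0.82, followed by Oas3 at 0.61, Oas1c at 0.49 and Oas1g at 0.44. These 4 genes were called with a pseudocount of 0.1, beside 4.08% of all genes. In deposited FPKM both AOC11 lines exceeded both AOC3 lines for Oas1a, Oas1c, Oas1g, Oas2 and Oas3, that is 5 of the 8 genes, beside 30.5% of the genes that reached 1 FPKM.

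From the list of 2-5A effectors and turnover 4 genes were analysed. Pde12, a phosphodiesterase that degrades 2-5A, had 5.25, 4.57, 6.16 and 3.15 FPKM. Abce1, an ATP-binding protein needed to recycle ribosomes, had 89.4, 100.0 and 109 FPKM in the first 3 lines and 69.6 in AOC11-LN. Enpp1, an ectoenzyme that cleaves nucleotides, had 13.7, 12.5, 13.7 and 12.3 FPKM, and Dhx36, an RNA helicase, had 10.9, 7.81, 16.3 and 11.9. All 4 genes were lower in AOC11-LN than in AOC11 in FPKM, beside 46.1% of the genes that reached 1 FPKM, and 0 of the 4 were called between the lines of either mouse.

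Among the other sensors of foreign nucleic acid, 14 of the 16 listed genes had an entry and 12 reached 1 FPKM. Ddx58, the gene of the RNA sensor RIG-I, had 4.40 FPKM in AOC3 against 1.38 in AOC3-LN, and 14.5 in AOC11 against 17.3 in AOC11-LN. It was the 1 sensor of the 12 called by the gap, at 1.49, beside 2.08% of all genes, and was called lower in AOC3-LN at -1.07. Ifih1, the gene of MDA5, had 2.06, 0.482, 2.99 and 5.21 FPKM, and Tmem173, the gene of the DNA-sensing adaptor STING, had 2.87, 0.0909, 4.07 and 6.59. AOC3-LN was the lowest line for each of these 3 genes, named for their gap, and AOC11-LN the highest. Over all 14 sensors, 7 were highest in AOC11-LN in FPKM, beside 32.1% of the genes that reached 1 FPKM. In AOC11-LN 6 of the 14 were lower than in AOC11, beside 46.1%, so this count was near the share of all genes. The 6 include Tlr7 and Tlr9, which did not reach 1 FPKM as the genes behind the 46.1% did. They also include Tlr3, an endosomal sensor of double-stranded RNA (21.8 in AOC11 and 16.6 in AOC11-LN), and Cgas, a DNA sensor (3.74 and 2.14). Tmem173 was called lower in AOC3-LN at -1.77, which with Ddx58 made 2 of the 12, beside 3.42% of all genes. Zbp1, a sensor of Z-form nucleic acid, was named here after its values were seen. It was the 1 sensor called higher in AOC11-LN over AOC11, at 2.09, beside 4.97%. Between the lymph node lines 4 of the 12, Zbp1 among them, were called higher in AOC11-LN, beside 8.69%. Zbp1 had 0.919, 0.0385, 0.503 and 6.19 FPKM and reached 1 FPKM in AOC11-LN alone, so its calls follow in part from this minimum.

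No interferon gene was expressed at a level that the filter passed. Of 21 listed ligands, 6 had an entry, and none of the 6 reached 1 FPKM in any line, with a summed FPKM of 0.0746 to 0.360. The receptors were present in all lines. Ifnar2, a chain of the type I interferon receptor, had 26.0 FPKM in AOC3 against 12.4 in AOC3-LN, and 14.8 in AOC11 against 16.6 in AOC11-LN, and Jak1, a kinase bound to it, had 36.8, 33.9, 26.7 and 25.2. Ifngr1, a chain of the interferon gamma receptor, had 14.8, 7.65, 19.4 and 18.9 FPKM. Of the 9 receptor and kinase genes, 0 were called between the lines of either mouse. Ifnar2 at -0.95 in mouse 3 and Jak2, another kinase, at 0.999 in mouse 11 came close to the threshold. In FPKM all 9 were lower in AOC3-LN than in AOC3, beside 54.1% of the genes that reached 1 FPKM, 2 of them more than 2-fold, beside 8.86%. In mouse 11, 5 were higher in AOC11-LN, beside 53.0%, and 4 lower, beside 46.1%.

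The list of interferon transcription factors came next in the pathway. Irf1, the most abundant, had 68.1 FPKM in AOC3 against 21.1 in AOC3-LN, and 66.9 in AOC11 against 96.5 in AOC11-LN, and was called lower in AOC3-LN at -1.65. Irf3 had 28.9, 28.3, 29.1 and 50.1 FPKM and Irf2 21.4, 16.0, 17.3 and 18.0, with no call in any comparison. All 7 factors analysed were lower in AOC3-LN than in AOC3 in FPKM beside 54.1% of the genes that reached 1 FPKM, and all 7 were higher in AOC11-LN than in AOC11, beside 53.0%. Their median log2 shifts were -0.61 in mouse 3 and 0.55 in mouse 11, although Irf5 was at -0.03 in mouse 11 on that scale. On the log2 scale 2 were called lower in AOC3-LN, Irf1 and, just past the threshold, Irf5, beside 3.42% of all genes. In AOC11-LN over AOC11 0 were called higher, beside 4.97%. Among the 6 feedback inhibitors 2 were called higher in AOC11-LN over AOC11, beside the same 4.97%, Ptpn6 at 1.14 and Usp18, which removes Isg15 from proteins, at 2.08. The most abundant, Ptpn11 and Ptpn2, were lower in AOC11-LN than in AOC11 without a call in that comparison, as was Socs3, with 13.4, 14.4, 7.34 and 4.82 FPKM.

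**Figure D5:**
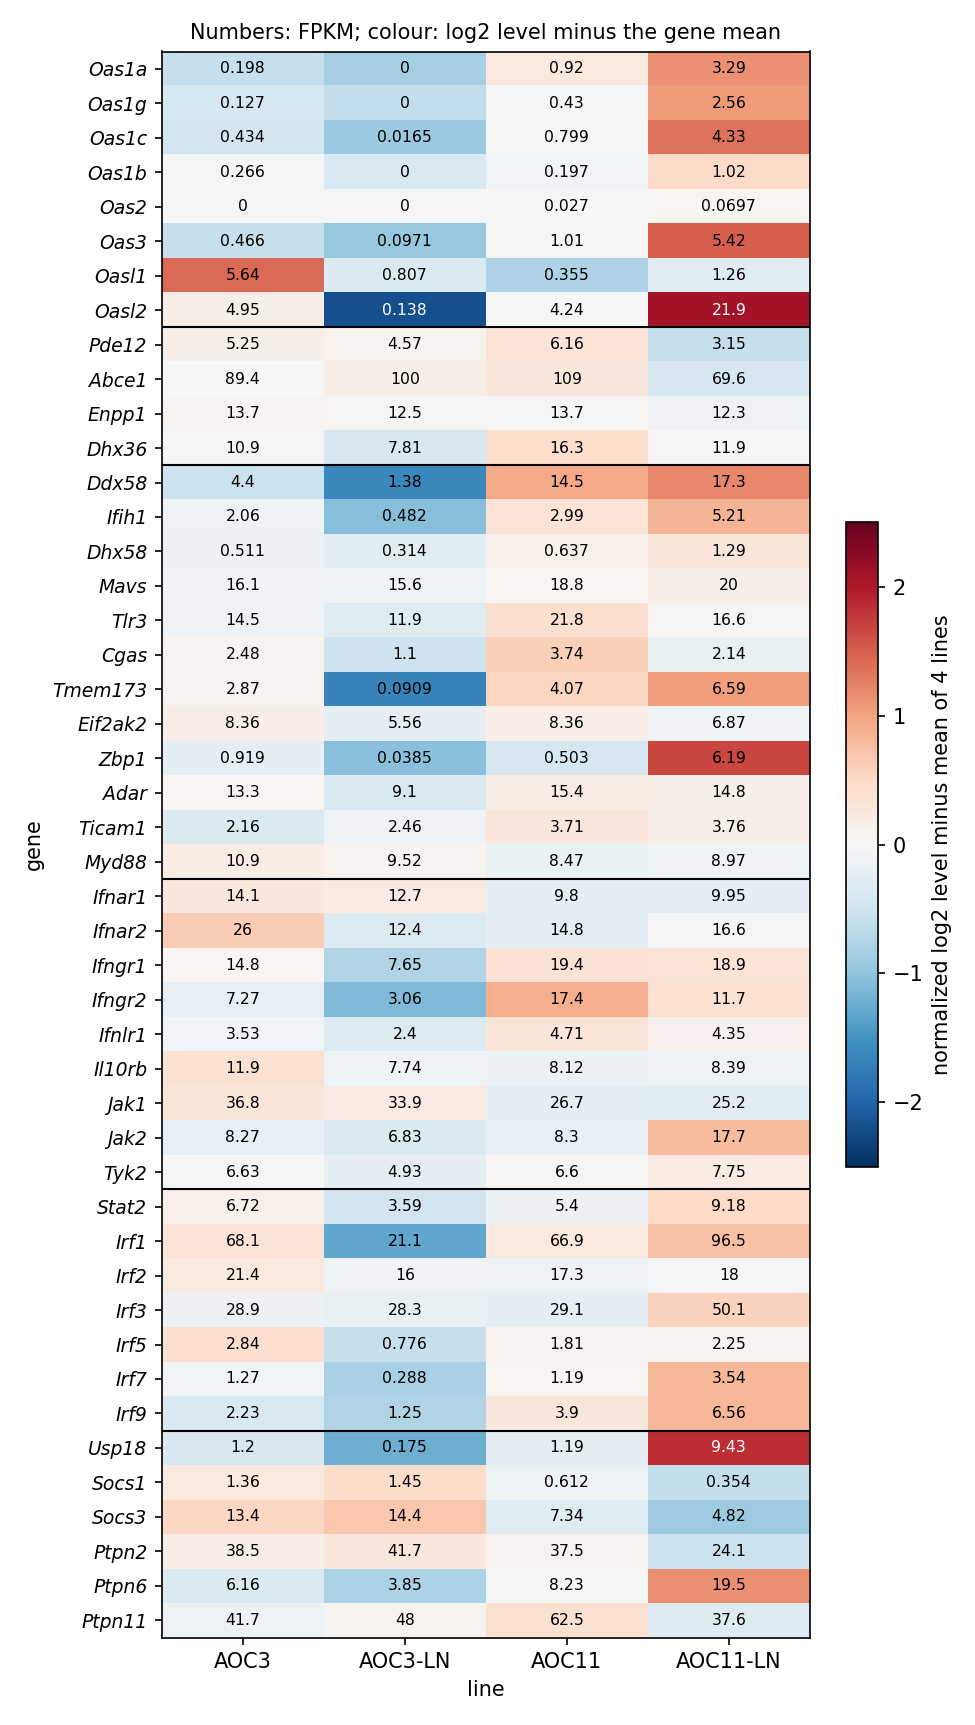
FPKM of the 8 family genes and of the pathway genes that reached 1 FPKM, written in each cell, with colour for the normalized log2 level minus the mean of the 4 lines; black lines part the family, the 2-5A genes, the sensors, the receptors and kinases, the transcription factors and the feedback inhibitors. Blue cells gather in AOC3-LN and red cells in AOC11-LN for the family and the factors, with Oasl1 reddest in AOC3, while the sensors are mixed in AOC11-LN, where Tlr3 and Cgas are lower than in AOC11.

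A list of 46 other interferon-stimulated genes all had entries, and 37 reached 1 FPKM. In deposited FPKM 40 of the 46 were lower in AOC3-LN than in AOC3, beside 54.1% of the genes that reached 1 FPKM, and 41 were higher in AOC11-LN than in AOC11, beside 53.0%. Of the 37, 12 were called lower in AOC3-LN, beside 3.42% of all genes, and 12 called higher in AOC11-LN, beside 4.97%, with 5 in both, beside 0.678%. The median log2 shifts of the 37 were -0.60 in mouse 3 and 0.72 in mouse 11, while the medians of all genes were 0.02 and -0.02. All 37 reached 1 FPKM in AOC11-LN, against 21 in AOC3, 11 in AOC3-LN and 28 in AOC11. Some, such as Ifit1 and Ifi44, did so in AOC11-LN alone. The calls and the median of the 37 in mouse 11 thus follow in part from this minimum and are given as a description. Bst2, or tetherin, which holds budding virus at the cell surface, had 17.7, 5.32, 119 and 159 FPKM. Ifi27 had 1.53, 0.383, 13.9 and 38.6, and Lgals9, the gene of galectin-9, had 3.82, 0.768, 26.0 and 20.1. These were the 3 genes with the largest gap between the mice, at 2.68, 2.57 and 2.13, against 0.82 at most in the Oas family. In all, 7 genes of the list were called by the gap with both AOC11 lines higher, beside 2.08% of all genes.

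The genes nearest in profile were ranked for the 3 members with the highest mean FPKM, by the distance between log2 levels over the 4 lines after each gene's mean was subtracted, among 14164 genes. Nearest to Oasl2 were Adgrg1, an adhesion receptor, at 0.27, then Phyhd1, Cp, the copper-carrying oxidase ceruloplasmin, Insl6 and Isg15, the ubiquitin-like modifier, at 0.70. Isg15 had 4.40, 0.411, 4.87 and 14.5 FPKM, close to the levels of Oasl2 in AOC3 and AOC11, above it in AOC3-LN and below it in AOC11-LN. Nearest to Oas3 were Cavin3 at 0.18, Oas1c at 0.19, Tgtp1, an interferon-inducible GTPase, at 0.20, Glipr2 and Zfp651, and the Tgtp1 value is uncertain because it has a near-identical neighbour, Tgtp2. Oasl1 kept other company. Its nearest genes were Pear1 at 0.10, Pdgfc, a growth factor, Xdh, the xanthine-oxidizing enzyme, Kcnab2 and Sorbs3 at 0.27, and Pear1 had 4.53, 0.656, 0.178 and 0.912 FPKM. With 4 points per profile and 1 library per point these distances are a description.

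The genes beside the family on chromosome 5 differed among themselves. At the Oas end, Dtx1 and Rph3a were at or near 0, with at most 0.0121 FPKM, and at the Oasl end 2210016L21Rik, which begins 4242 bases after Oasl1, had 14.8, 13.1, 17.2 and 20.0 FPKM, in the line order of Oas3. P2rx7, an ATP-gated ion channel near the Oasl genes, had 1.17, 0.336, 0.564 and 1.42 FPKM, in the line order of Oasl2. P2rx4, a related channel, had 10.2, 10.5, 19.1 and 25.8 FPKM. Within the Oas cluster Oas1e had 0.0312 FPKM in AOC11-LN and was at 0 elsewhere, and Oas1f was at 0 in all lines. Of 9 listed genes around the Oas cluster, 0 were called in any of the 4 comparisons, and of 9 around Oasl1 and Oasl2, 1 was, P2rx4 between the lymph node lines at 1.11.

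The lines carried epithelial markers at a summed 2816 to 3542 FPKM, and all 9 genes reached 1 FPKM in at least 1 line. In each AOC11 line 8 of the 9 did so, with Trp63 at 0.0848 FPKM in AOC11 and 0.841 in AOC11-LN. Krt5, at 499, 275, 4.99 and 17.0 FPKM, was the 1 marker of the 9 called by the gap with the AOC3 lines higher, beside 1.81%. All 8 fibroblast markers, all 8 T cell markers and all 6 endothelial markers stayed under 1 FPKM in every line, and Adgre1, Cd3e, Cd4, Cd8a and Cd2 were at 0 in all lines. Of the 8 macrophage markers, Cd68, Cd14 and Csf1r passed 1 FPKM. Cd68 had 13.0, 8.79, 6.15 and 4.45 FPKM, Cd14 had 7.31, 8.55, 6.83 and 6.27, and Csf1r had 0.995, 0.435, 20.8 and 6.01. Of these 3, Csf1r was called by the gap with the AOC11 lines higher, at 1.79, beside 2.08% of all genes. The part of other cell types in the Oas levels was not tested. Of the 5 plasmacytoid dendritic cell markers with an entry, Bst2 and Tcf4 were expressed, and Bst2 is itself on the interferon-stimulated list. The libraries were similar in depth, at an estimated 28260000 to 33820000 fragments, and AOC3-LN, the lowest for 6 of the 8 family genes and for 30.4% of the genes that reached 1 FPKM, was also the shallowest and had the most entries at 0, 10813 of 34721 against 9211 to 10010. FPKM are scaled to the library, and 14 housekeeping genes spread over the lines by a median of 1.48-fold and by 3.13-fold at most. The widest was B2m, which interferon also induces, with 459, 272, 452 and 851 FPKM, lowest in AOC3-LN and highest in AOC11-LN, and without it the other 13 spread by 2.09-fold at most. The part of library depth in the low AOC3-LN values was not tested.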

How the data were processed

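RNA of cultured cells from 4 lines was sequenced as stranded mRNA libraries in paired reads of 100 bases, with 1 library per line. Per the labels and the study's methods, the authors used Trim Galore for trimming, TopHat2 for mapping to mm10 and Cufflinks with the GENCODE M21 annotation to estimate FPKM, at default settings. The versions are not given in the sources used here. The deposited FPKM values are linear, so the log2 transformation (pseudocount 1) and the quantile normalization that the methods name were carried out here over all 34721 entries. Whether counting used strand is not stated. Reads that fit several paralogs are a limit for near-identical genes.

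The 14165 entries that reached 1 FPKM in any line were compared, and a log2 difference above 1 or below -1 was called. With 1 library per line no p-value was computed. Fragments per library were estimated from the steps of low FPKM values among 9528 genes with 1 transcript longer than 800 bases. This left 3398 to 3785 low values above 0 per line. Of those that came to a few fragments, 71.6% to 74.8% fell within 0.1 of a whole multiple. The estimate put AOC3 at 33680000 fragments, AOC3-LN at 28260000, AOC11 at 33820000 and AOC11-LN at 32440000. The fragments of each member were taken from its FPKM and the length of its longest coding transcript. Only Oas1a has 1 annotated transcript, and Oasl2 has 9 and Oasl1 6, so fragments and intervals also rest on that choice. For Oas1a and Oas1g they rest on how shared reads were divided as well. Exact 95% Poisson or binomial intervals from the rounded fragments cover counting error only, and 3 fragments were taken as the limit that a value of 0 allows. The scripts were tested on simulated data.

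The members and lists were chosen with earlier results of these data known. The text names all 8 members, the 5 genes nearest in profile to each of the 3 members with the highest mean FPKM, positional neighbours and, from each list, the 3 genes with the largest gap or, where none was called, the 3 with the highest mean FPKM. Genes beyond these, such as Pde12, Irf5, Usp18, Ptpn6, Zbp1, Tlr3, Cgas, Jak2, P2rx7, P2rx4, B2m, Csf1r, Krt5, Trp63 and the markers at 0, were named after their values were seen. Transcripts were aligned locally with Biopython 1.88, in place of a protein alignment, and tables were handled with pandas 2.3.3, numpy 2.4.6 and scipy 1.17.1. Alternatives were a pseudocount of 0.1, no quantile normalization, scaling by the median, no filter, a filter of 5 FPKM, protein-coding genes only and thresholds of 1.5-fold and 4-fold. Oas1d, Oas1h and some further pathway genes were not analysed here.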

Additional observations from a re-analysis of the deposited data

Results flagged for a closer look

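The shift from the primary to the lymph node line went down in mouse 3 and up in mouse 11 for 7 of the 8 family genes. Each value is the log2 shift in mouse 11 minus that in mouse 3, on the quantile-normalized log2(FPKM + 1) scale. It was 4.44 for Oasl2, 2.25 for Oasl1, 1.84 for Oas3, 1.78 for Oas1c, 1.24 for Oas1g, 1.15 for Oas1a and 0.87 for Oas1b. The difference between the mice was not tested, since each line is 1 library.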

How the results depend on the processing

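Counts of called members depended on the pseudocount, the threshold and the filter. With a pseudocount of 0.1 in place of 1, 4 members were called higher in AOC11 than in AOC3 (0 before), 7 lower in AOC3-LN than in AOC3 (2 before), 7 higher in AOC11-LN than in AOC11 (4 before), 7 in both directions at once (1 before) and 4 by the gap with both AOC11 lines higher (0 before). At 1.5-fold, 2 were called higher in AOC11 than in AOC3, beside 14.4% of all genes, and 2 by that gap, beside 5.41%. At 4-fold, 3 were called higher in AOC11-LN than in AOC3-LN, beside 2.46%, 1 lower in AOC3-LN than in AOC3, beside 0.918%, and 1 higher in AOC11-LN than in AOC11, beside 1.05%. With a minimum of 5 FPKM, which leaves 3 members, 2 were called higher in AOC11-LN than in AOC3-LN, beside 8.47%, and 2 higher than in AOC11, beside 4.87%. Of 75 interferon pathway genes that reached 1 FPKM, 8 were called by the gap with the AOC11 lines higher, beside 2.08% of all genes. The count was 17 with a pseudocount of 0.1, beside 4.08%, 18 at 1.5-fold, beside 5.41%, and 3 at 4-fold, beside 0.325%. With the AOC3 lines higher 1 was called at 1.5-fold, beside 4.69%, against 0 before, beside 1.81%. No quantile normalization, median scaling, no filter and protein-coding genes only left these counts within 1.5 times. Of 168 log2 differences of single members under the alternatives, 152 stayed on their side of the threshold and 16 crossed it to become called, 13 of them with the pseudocount of 0.1. The sign turned for Oasl1 between the lymph node lines among protein-coding genes, at -0.14 against 0.06, neither of them called. Each line is 1 library, so no replicate could be left out. No paired analysis was possible because the result comes from no test. Depth limits Oas2 and the Oas1 genes in AOC3-LN, which rest on 0 or 1 fragment.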
